A study of Mus musculus with 12 samples.

Results

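Metabotropic glutamate receptors are the G protein-coupled receptors of the transmitter glutamate. The 6 genes described here, Grm2, Grm3, Grm4, Grm5, Grm7 and Grm8, were chosen by name, as the rows of a count table of 14909 genes that carry these symbols, and all 6 had enough counts to be tested. The table came from bulk RNA sequencing of frontal cortex of C57BL/6 mice, 5 with the genotype UPF3B KO (Upf3b-null; KO 1 to 4 and KO 6) and 7 wild type (WT 1 to 7), with 1 library per mouse. The mice were kept pathogen-free, and no agent is named for either group. The sources used here state no age, kind of null allele or source colony, so any such difference between the groups and the absence of Upf3b cannot be told apart. Upf3b encodes a factor of nonsense-mediated mRNA decay, the pathway that degrades transcripts whose stop codon lies early. The question was whether receptor transcript levels differed between KO and WT cortex.

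These receptors bind glutamate through a large extracellular domain and fall into 3 groups by sequence and signalling. Group I, here Grm5, couples to Gq, activates phospholipase C and releases calcium from internal stores, mostly on the postsynaptic side. Group II, here Grm2 and Grm3, and group III, here Grm4, Grm7 and Grm8, couple to Gi/o, lower cyclic AMP and dampen transmitter release. Grm2 and the group III receptors act largely on axon terminals, and Grm3 is also made by astrocytes.

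In mm10 the genes lie apart from one another. Grm2 spans chr9:106643095-106656082 and Grm3 spans chr5:9485541-9725170, both on the minus strand. Grm4 spans chr17:27422387-27521403 on the minus strand and Grm5 spans chr7:87584168-88134907 on the plus strand. Grm7, at chr6:110645581-111567230 on the plus strand, and Grm8, at chr6:27275119-28135178 on the minus strand, share a chromosome at a distance.

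Of the 6 genes, 2 carry an annotated transcript that nonsense-mediated decay can target, one whose stop codon lies over 50 nt before the last exon junction. They are Grm4 and Grm7, both of group III. Among 13676 tested genes with an annotated stop codon the share was 28.3%. In the Grm7 transcript Grm7-204 an extra exon of 34 bases, on chromosome 6 from 110703442 to 110703475 of mm10 on the plus strand, shifts the reading frame, and a stop codon follows 11 bases into the next exon, at 110914338 to 110914340. In the Grm4 transcript Grm4-208 an exon of 217 bases, on chromosome 17 from 27472908 to 27473124 on the minus strand, is skipped, and the stop codon lies 24 bases past the new junction, at 27454596 to 27454598. The sequences from GENCODE M21 below show both events, since transcripts of this kind are the known substrates of the decay pathway. The counts are per gene and do not separate these transcripts from the others.
Grm7-204, with the extra exon in capitals and the early stop codon as the last 3 bases: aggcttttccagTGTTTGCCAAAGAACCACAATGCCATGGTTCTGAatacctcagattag
Grm7-202, the same flanking exons joined without it, with the bases on each side of the junction in capitals: aggcttttccaGAtacctcagattag
Grm4-208, from 12 bases before the new junction to the early stop codon in capitals: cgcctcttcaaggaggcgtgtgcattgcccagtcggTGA
Grm4-201, the junction into the exon that Grm4-208 skips, with the bases on each side in capitals: cgcctcttcaaGAtcccccagatcagc

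Upf3b itself was nearly lost from each KO library, at 11 to 24 counts in KO against 157 to 219 counts in WT, or 2.76 ± 0.877 CPM in KO and 38.35 ± 2.48 CPM in WT (SD, n = 5 and n = 7; log2 fold change -3.78, edgeR adjusted p = 7.21e-11). Library totals ran from 4990643 to 6617759 counts in KO and from 4684039 to 5425774 in WT, and 4 of the 5 KO totals lay above every WT total. CPM are read counts scaled to a common library size with TMM factors, and fold changes are KO over WT. As nothing in the labels ties mice to litters or days, the spread between libraries is taken as the spread between mice.

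A pair of libraries, KO 2 and WT 4, stood apart from the rest of their groups in markers of neighbouring tissue. The summed level of 8 striatal markers was 1185 CPM in KO 2 against 673 to 879 CPM in the other KO libraries. It was 1436 CPM in WT 4 against 603 to 1175 CPM in the other WT libraries. WT 7, at 1175 CPM, was near KO 2 on this sum and was kept. All 8 markers were detected in every library and none passed the test between KO and WT. The 6 markers of cortical excitatory neurons were detected in all 12 libraries. They summed to 1173 to 1687 CPM in KO and 1413 to 1765 CPM in WT. KO 2 and WT 4 were lowest, against at least 1366 CPM in other KO and 1621 CPM in other WT libraries. In hippocampal markers they were highest, at 300 and 329 CPM (others at most 239 and 230 CPM). In olfactory bulb markers they had 230 and 274 CPM (others at most 191 and 154 CPM). Most of the hippocampal sum came from 1 gene, Wfs1, named after its values were seen, with means of 154 CPM in KO and 154.5 CPM in WT. In thalamic and choroid plexus markers KO 2 was highest of KO, but WT 4 was not highest of WT. Because these are bulk samples, fewer cells of a type and less RNA per cell cannot be told apart. The receptors' tests are therefore also given without KO 2 and WT 4.

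All 6 receptors were clearly expressed, and their levels per exonic length spanned a few-fold. Grm3 was highest, at 38.6 ± 1.59 CPM per kb in KO and 41.2 ± 2.94 CPM per kb in WT (SD, n = 5 and n = 7, as for all levels per length). Grm5 followed at 34.97 ± 1.88 CPM per kb in KO and 36.1 ± 5.77 CPM per kb in WT. Grm2 had 22.9 ± 4.47 CPM per kb in KO and 21.7 ± 3.28 CPM per kb in WT, close to Grm7. Grm7 had 22.2 ± 1.36 CPM per kb in KO and 20.4 ± 1.72 CPM per kb in WT. Grm4 stood at 13.0 ± 1.86 CPM per kb in KO and 10.9 ± 2.05 CPM per kb in WT, and Grm8 at 10.5 ± 1.31 and 9.68 ± 0.667 CPM per kb in KO and WT. The ranges of Grm3 and Grm5, of Grm2 and Grm7, and of Grm4 and Grm8 overlapped within each group. Grm5 lay above Grm2 and Grm7 lay above Grm4 without overlap, and Grm2 reached into the range of Grm4 through KO 2 and WT 4.

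**Figure D1:**
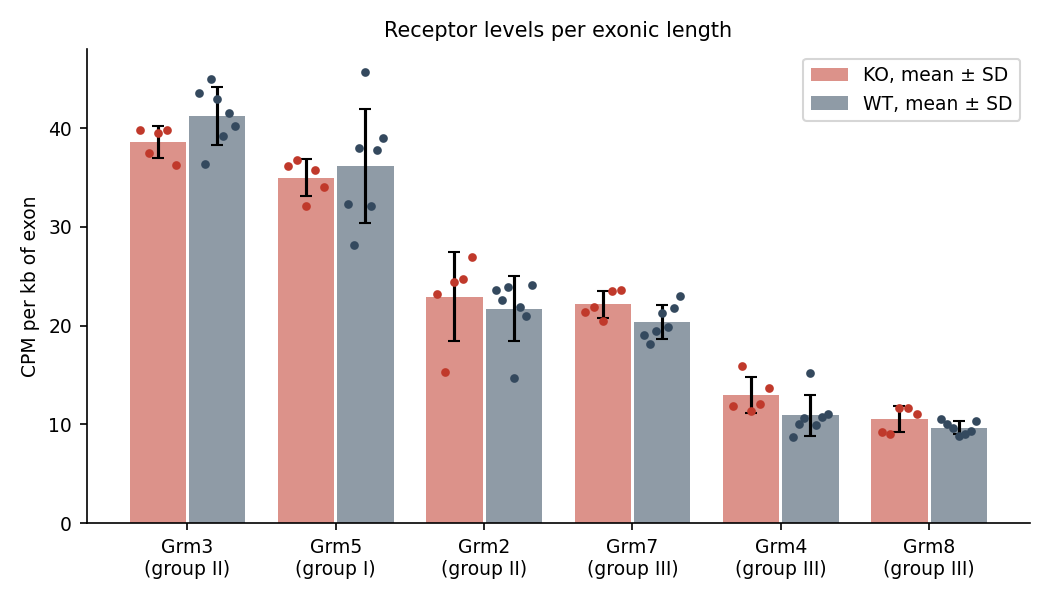
Level of each receptor in CPM per kb of exon, with KO left of WT; bars are means, error bars SD and points single libraries (5 KO, 7 WT). The order from Grm3 to Grm8 was the same in both groups, with Grm3 at 38.6 and Grm8 at 10.5 CPM per kb in KO.

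By receptor group, Grm5 of group I made up 24.6% ± 1.62 of the summed level per length of the 6 genes in KO and 25.7% ± 2.71 in WT (SD, n = 5 and n = 7). The group II receptors Grm2 and Grm3 made up 43.2% ± 2.69 in KO and 45.1% ± 3.31 in WT. The group III receptors made up 32.1% ± 1.69 in KO and 29.3% ± 1.32 in WT, and the KO range of 30.0% to 34.3% overlapped the WT range of 27.1% to 30.5%.

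None of the 6 receptors passed at an adjusted p under 0.05 in edgeR's quasi-likelihood test over all 14274 tested genes, in which 29.7% of genes were called, 15.3% higher and 14.4% lower. With the mouse number as a replicate block 0 of the 6 passed, against 16.2% of all genes. DESeq2 and limma-voom also called 0 of the 6, against 26% and 30.8% of all genes, and 1 receptor, Grm4, had an unadjusted edgeR p under 0.05, as did 41.5% of all genes. The 4 fold changes above zero were those of Grm2, Grm4, Grm7 and Grm8, and those of Grm3 and Grm5 were below zero. The 95% interval of each fold change stayed between 0.844-fold and 1.41-fold. In all 6 receptors the KO and WT libraries overlapped in CPM, whereas 10.6% of all tested genes separated them.

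**Figure D2:**
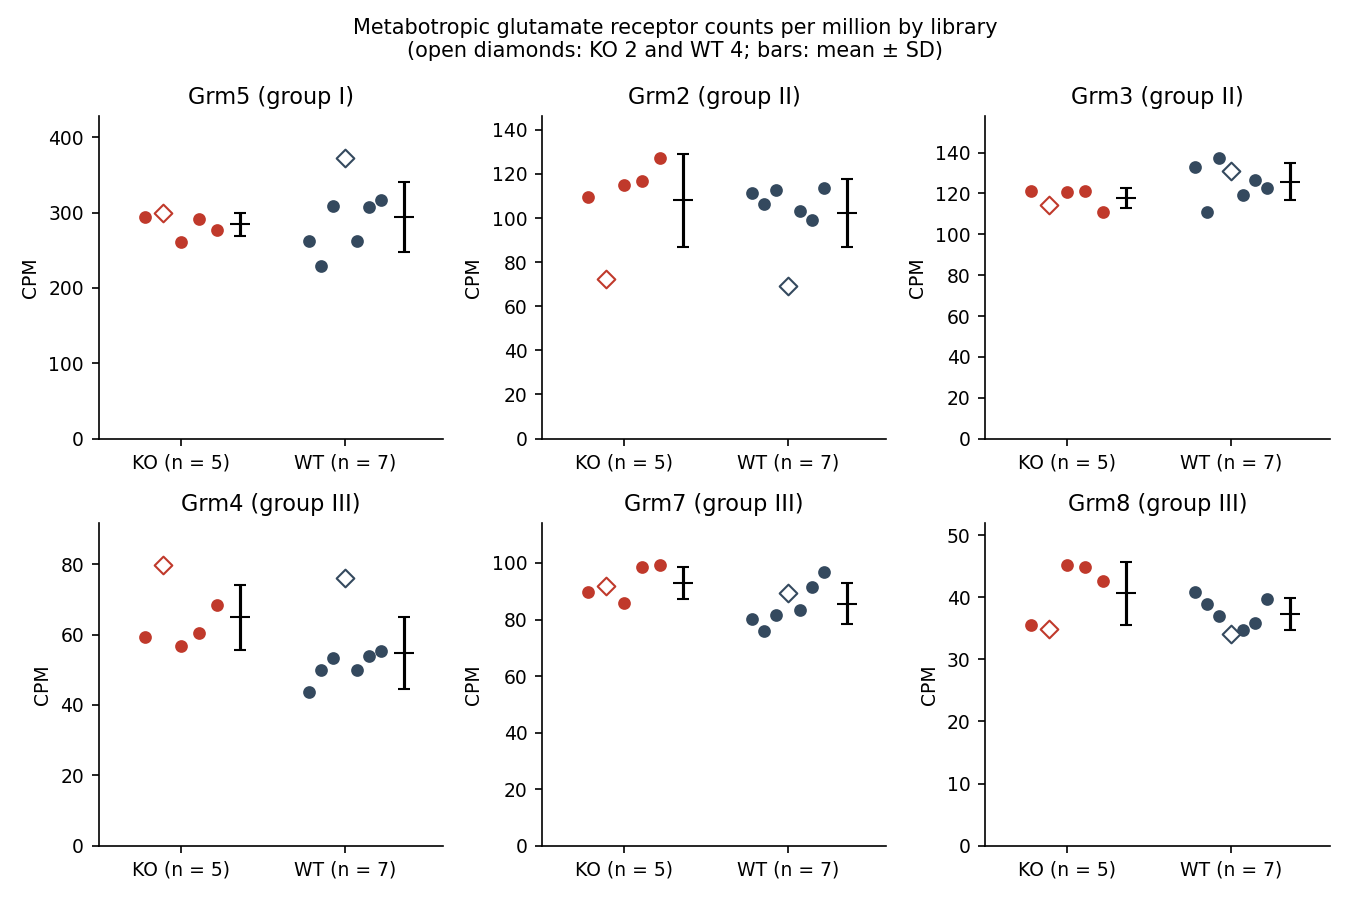
CPM of each receptor in each library, KO left of WT, with mean ± SD beside the points (5 KO, 7 WT); open diamonds are KO 2 and WT 4. Grm2 was lowest and Grm4 highest of their group in both of these libraries, and the groups overlapped for every receptor.

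Grm5, the group I receptor that is anchored to Homer scaffolds at excitatory synapses, had 294, 299, 262, 291 and 277 CPM in KO 1, 2, 3, 4 and 6. The WT libraries ran from 229 to 372 CPM with a median of 307 CPM, so all 5 KO values lay inside the WT range and WT 4 was the highest library. The log2 fold change was -0.05 ± 0.09 (SE; 95% interval -0.24 to 0.15), with an edgeR adjusted p of 0.725. Its sign was not fixed, since the log2 fold change was 0.016 with count density offsets, described below, and 0.0044 without WT 4. Without both KO 2 and WT 4 it was -0.013 (edgeR adjusted p = 0.911).

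Grm2, a group II receptor of cortical terminals that damps glutamate release, had 109, 72.2, 115, 117 and 127 CPM in KO 1, 2, 3, 4 and 6. The WT libraries ran from 69.4 to 114 CPM with a median of 107 CPM. KO 2 and WT 4 were the low libraries, and outside them Grm2 was at 109 to 127 CPM in KO and 98.95 to 114 CPM in WT. The log2 fold change was 0.08 ± 0.13 (SE; 95% interval -0.19 to 0.36; edgeR adjusted p = 0.667). Without both libraries it was 0.11 ± 0.05 (SE) with an edgeR adjusted p of 0.108. Without WT 4 alone its sign turned, at -0.010, and without KO 2 alone it was 0.20 (edgeR adjusted p = 0.156).

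Grm3, the group II receptor shared by neurons and astrocytes, had 121, 114, 120.5, 121 and 111 CPM in KO 1, 2, 3, 4 and 6. The WT libraries ran from 111 to 137 CPM with a median of 127 CPM. The KO libraries lay in the lower part of the WT range, and KO 6 was level with WT 2 at 111 CPM. The log2 fold change was -0.10 ± 0.05 (SE; 95% interval -0.20 to 0.011; edgeR adjusted p = 0.163). Without WT 2 it passed, at -0.13 (edgeR adjusted p = 0.0484; 26.8% of genes called there), and with count density offsets it was -0.011. Leaving out KO 2 and WT 4 gave -0.089 (edgeR adjusted p = 0.227). Most but not all markers of astrocytes had fold changes below zero too. Of 9 markers 5 were called lower and none higher, where 14.4% of all genes fell and 15.3% rose. Gfap and Aqp4 of the same list, named after their values were seen, had log2 fold changes of 0.13 and 0.050 and did not pass. The 9 markers summed to 2317 to 2749 CPM in KO and 2549 to 3047 CPM in WT. No marker was at 0 counts in any library. With count density offsets 2 of the 9 fell, against 8.03% of all genes, and the median of the list was -0.015. The part of astrocyte markers in the value of Grm3 was not tested.

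Grm4, a group III receptor of presynaptic terminals, gave the largest of the 6 fold changes. It had 59.3, 79.7, 56.8, 60.5 and 68.3 CPM in KO 1, 2, 3, 4 and 6. The WT libraries ran from 43.7 to 76.1 CPM with a median of 53.3 CPM. WT 4 was the only WT library inside the KO range, and the next WT library was at 55.4 CPM, below the lowest KO library at 56.8 CPM. The log2 fold change was 0.25 ± 0.12 (SE; 95% interval 0.00082 to 0.49; edgeR adjusted p = 0.119).

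How Grm4 was called depended on the libraries that stood apart. Without KO 2 and WT 4 it passed, at a log2 fold change of 0.25 ± 0.07 (SE, edgeR adjusted p = 0.0102; 30.6% of genes called there), with 60.8 ± 4.87 CPM in KO and 51.2 ± 4.11 CPM in WT (SD, n = 4 and n = 6). The KO and WT libraries then did not overlap, as in 17.8% of all genes. That follows from the omission itself, since WT 4 was the only WT library inside the KO range. KO 2 and WT 4 were also the highest Grm4 libraries of their groups, so this fit is not independent support for a difference. Without WT 4 alone the log2 fold change of Grm4 was 0.33 (edgeR adjusted p = 0.00704; 34.3% called), and without KO 2 alone it was 0.16 (edgeR adjusted p = 0.311). With the summed striatal marker level as a covariate, a fit added after the data were seen, it was 0.25 ± 0.06 (SE, edgeR adjusted p = 0.00559), and 36.8% of genes were called. Offsets for count density gave 0.15 (edgeR adjusted p = 0.359; 16.5% called), and a fit on the log2 library total gave 0.0030 (edgeR adjusted p = 0.998; 0.666% called).

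**Figure D3:**
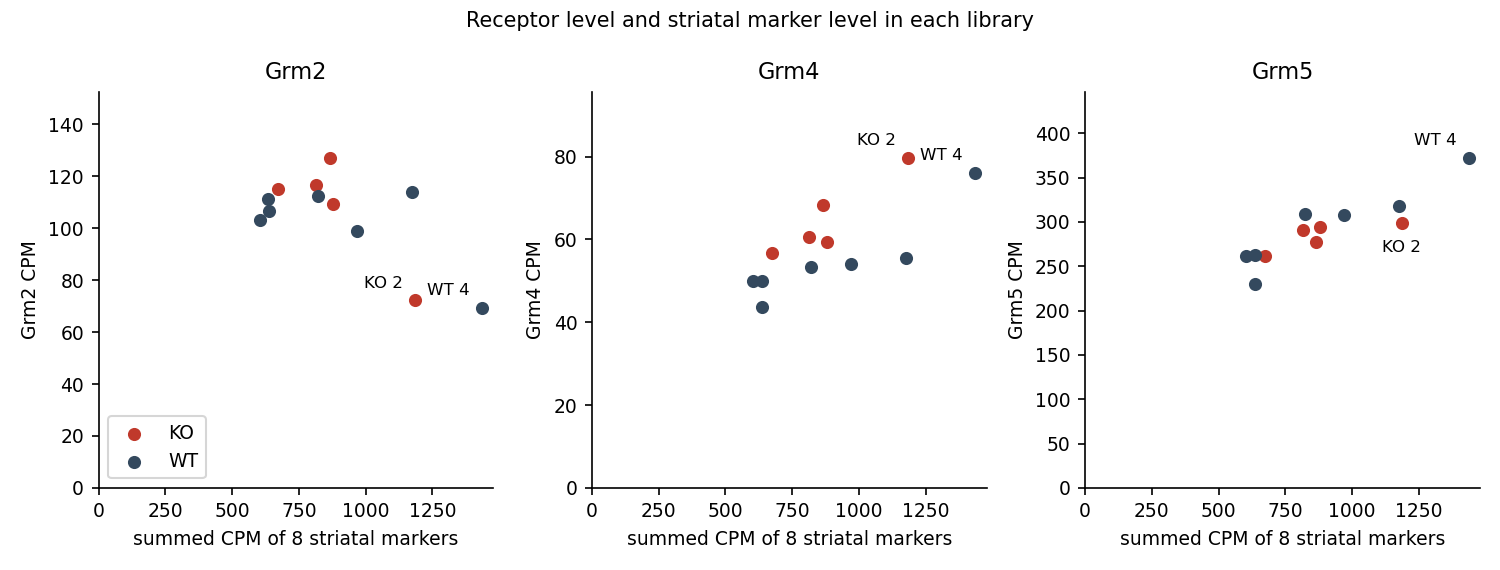
CPM of Grm2, Grm4 and Grm5 against the summed CPM of 8 striatal markers in each of the 12 libraries (KO and WT by colour). KO 2, at 1185 CPM, had the highest striatal level of the KO libraries, and WT 4, at 1436 CPM, that of the WT libraries; Grm2 was low and Grm4 high in both, and Grm5 was highest of all in WT 4.

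Grm7, a low-affinity group III receptor of the presynaptic active zone, had 89.8, 91.8, 85.9, 98.5 and 99.1 CPM in KO 1, 2, 3, 4 and 6. The WT libraries ran from 76.1 to 96.7 CPM with a median of 83.4 CPM. KO 4 and KO 6 lay above all WT libraries, and the other KO libraries lay among them. Its log2 fold change was 0.12 ± 0.06 (SE; 95% interval -0.0043 to 0.25; edgeR adjusted p = 0.133). It ran from 0.09 to 0.15 over all 23 other settings, the narrowest range of the 6, and its smallest adjusted p was 0.0557. Without KO 2 and WT 4 it was 0.13 (edgeR adjusted p = 0.131).

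Grm8, the third group III receptor here, had 35.6, 34.8, 45.1, 44.9 and 42.6 CPM in KO 1, 2, 3, 4 and 6. The WT libraries ran from 34.1 to 40.8 CPM with a median of 37.0 CPM. KO 3, KO 4 and KO 6 lay above all WT libraries, while KO 1 and KO 2 lay near the bottom of the WT range. For Grm8 the log2 fold change was 0.13 ± 0.08 (SE; 95% interval -0.037 to 0.29; edgeR adjusted p = 0.227). It was 0.018 with count density offsets and -0.0080 in the fit on the library total. Without KO 2 and WT 4 it was 0.15 (edgeR adjusted p = 0.135).

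**Figure D4:**
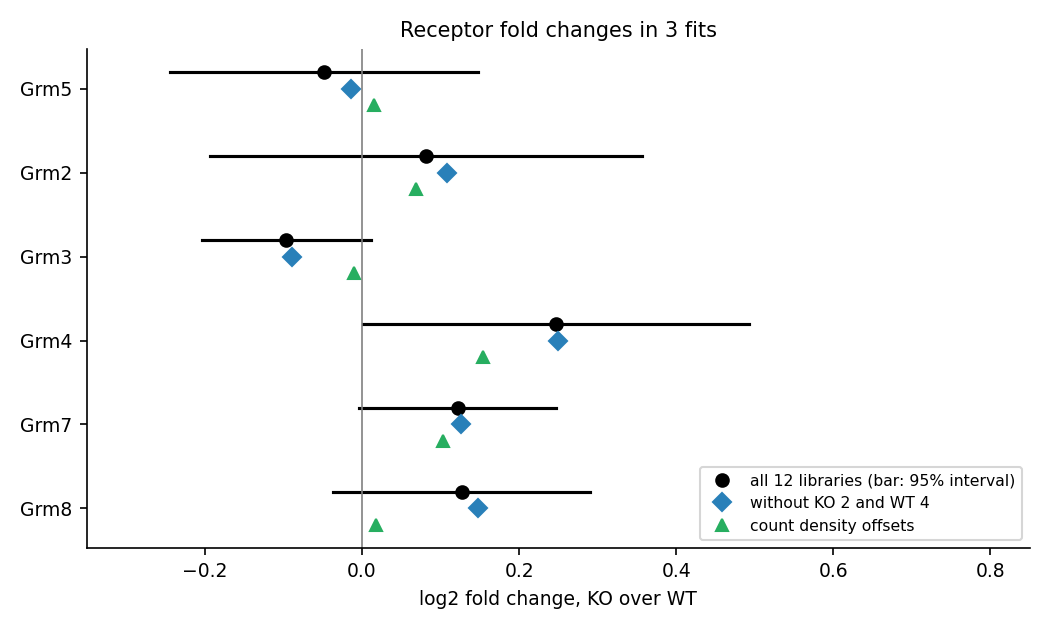
Log2 fold change of each receptor, KO over WT, in the fit of all 12 libraries (black, with 95% interval), without KO 2 and WT 4 (blue diamonds) and with count density offsets (green triangles). The points of Grm4 lay between 0.15 and 0.25, and the triangles of Grm3, Grm5 and Grm8 lay at -0.011, 0.016 and 0.018.

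The count density offsets remove a trend that runs through the whole table. When genes were ordered by their mean count per base of exon and cut into 10 equal bins, the median log2 fold change was 0.25 in bin 1, of the sparsest genes, and -0.18 in bin 10. Grm8 lay in bin 4, Grm4 in bin 5, Grm2 and Grm7 in bin 7, and Grm3 and Grm5 in bin 9. The medians of these bins were 0.12, 0.094, 0.016 and -0.088, with the same sign as the receptor's own fold change in all 6 cases. By the definition of a median, any gene is at least as likely as not to share the sign of its bin's median. The share of all genes that do was not counted. With the offsets 8.43% of all genes were called higher and 8.03% lower, and none of the 6 receptors was called. The part of count density in the value of any 1 receptor was not tested.

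Ratios of 2 receptors within a library, which do not depend on scaling between libraries, were compared for all 15 pairs by exact permutation of KO and WT (792 arrangements, two-sided). Where the 2 receptors lie in unlike bins of count density, a ratio can still carry the trend above. No ratio was corrected for it. The log2 ratio of Grm4 to Grm5 was -2.14 ± 0.17 in KO and -2.43 ± 0.14 in WT (SD, n = 5 and n = 7; exact permutation p = 0.0177). The log2 ratio of Grm3 to Grm7 was 0.34 ± 0.13 in KO and 0.56 ± 0.14 in WT (exact permutation p = 0.0202), and that of Grm3 to Grm4 was 0.87 ± 0.25 in KO and 1.22 ± 0.25 in WT (exact permutation p = 0.0404). No pair passed after Benjamini-Hochberg adjustment over the 15, with smallest adjusted permutation p of 0.152, and KO and WT overlapped in each pair. Without KO 2 and WT 4, 0 of the 15 passed as well. Fewer libraries give fewer arrangements, and a single pair at the smallest possible permutation p could then not pass the adjustment. This count is therefore no check on the result with all libraries. Grm7 and Grm8, both of group III, had a log2 ratio of 1.2 ± 0.18 in KO and 1.19 ± 0.17 in WT (exact permutation p = 0.944).

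Among the proteins that hold or bind these receptors, both members of the ELFN family were higher in KO. ELFN1 and ELFN2 are postsynaptic leucine-rich repeat proteins that bind group III receptors across the synaptic cleft. Elfn2 had 201, 172, 185, 192 and 198 CPM in KO 1, 2, 3, 4 and 6, against 132 to 160 CPM in WT with a median of 156 CPM. Elfn1 had 60.9, 70.8, 62.4, 63.9 and 62.1 CPM in the same KO libraries, against 46.8 to 59.7 CPM in WT with a median of 54.3 CPM. In both genes every KO library lay above every WT library, as did 10.6% of all genes in one direction or the other. The log2 fold change of Elfn2 was 0.32 ± 0.05 (SE, edgeR adjusted p = 6.81e-04) and that of Elfn1 was 0.26 ± 0.06 (SE, edgeR adjusted p = 0.00546). Elfn2 passed in each of the 23 other settings, with 0.31 and an adjusted p of 0.00114 with count density offsets and 0.43 and 0.0350 in the fit on the library total. Elfn1 passed with count density offsets (0.20, edgeR adjusted p = 0.0359) and not in the fit on the library total (0.19, edgeR adjusted p = 0.474). ELFN1 is best known from somatostatin interneurons. Of 8 interneuron markers 3 fell, where 14.4% of all genes fell, among them Sst, by 0.34 on the log2 scale (edgeR adjusted p = 0.00153). Lhx6 and Pvalb of the same list, named after their values were seen, had log2 fold changes of 0.14 and 0.046 and did not pass. With count density offsets 1 of the 8 fell, where 8.03% of all genes fell, and Sst, at -0.11, did not pass.

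Of all 17 scaffolds and binding partners 4 rose and 2 fell, where 15.3% of all genes rose and 14.4% fell, a share near that of the whole table. The list had a median log2 fold change of 0.070 against 0.034 over all tested genes. Cyth2, a guanine nucleotide exchange factor for Arf proteins, fell by 0.23 on the log2 scale (edgeR adjusted p = 0.00488). Ncdn, which encodes the Grm5-binding protein neurochondrin, fell by 0.22 (edgeR adjusted p = 0.00776), but its sign turned with count density offsets, at 0.068, and in the fit on the library total, at 0.00068. The other two rises were in Homer3 and Grip1, named after their values were seen, at log2 fold changes of 0.47 ± 0.13 and 0.25 ± 0.09 (SE). After the density offsets 2 of the 17 rose and 1 fell, against 8.43% and 8.03% of all genes.

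Of 16 genes of the Gq pathway of group I receptors 2 rose and 7 fell, where 15.3% of all genes rose and 14.4% fell. The list had a median log2 fold change of -0.12 against 0.034 over all tested genes. The protein kinase C genes Prkce, Prkca and Prkcb fell by 0.24, 0.27 and 0.23 on the log2 scale (edgeR adjusted p = 0.00147, 0.00160 and 0.0102), while Itpr2, an inositol trisphosphate receptor, rose by 0.36 (edgeR adjusted p = 0.0160). After the offsets 1 of the 16 rose and 1 fell, against 8.43% and 8.03% of all genes, and the rise was that of Prkcb, whose sign turned to 0.14.

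The Gi/o pathway of group II and III receptors had 11 falls and no rise among 23 genes, against 14.4% falls and 15.3% rises over all genes, with a median log2 fold change of -0.13. Gnai1 and Gnai2, which encode inhibitory G protein alpha subunits, fell by 0.26 and 0.18 on the log2 scale (edgeR adjusted p = 0.00203 and 0.00374). The G protein beta subunit gene Gnb1 fell by 0.25 and Prkar1b, a regulatory subunit of protein kinase A, by 0.29 (edgeR adjusted p = 0.00362 and 0.00281). With count density offsets 1 of the 23 rose and none fell, against 8.43% and 8.03% of all genes, at a median of -0.012, and Gnai2 was at 0.0052. The GIRK channel genes Kcnj3, Kcnj6 and Kcnj9, named after their values were seen, had log2 fold changes of -0.12, 0.13 and 0.14 and did not pass.

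Of 12 genes that desensitise receptors or speed up G protein turnover 1 rose and 3 fell, and the called share was near the 29.7% of the whole table. The median log2 fold change was -0.079. Rgs4 and Rgs7, which accelerate GTP hydrolysis, fell by 0.26 and 0.24 on the log2 scale (edgeR adjusted p = 0.00439 and 0.00771). Adrbk1, the receptor kinase GRK2, fell by 0.21 (edgeR adjusted p = 0.0239; 0.019 in the fit on the library total), and Adrbk2, the kinase GRK3, rose by 0.15 (edgeR adjusted p = 0.0455), a call lost with DESeq2 size factors. Of these 12, the offsets left 1 rise and no fall, against 8.43% and 8.03% of all genes.

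Genes of glutamate uptake and supply had 5 falls and no rise among 11, against 14.4% falls and 15.3% rises over all genes, with a median of -0.10. Glul, the glutamine synthetase of astrocytes, and the astrocyte glutamate transporters Slc1a3 and Slc1a2 fell by 0.31, 0.23 and 0.27 on the log2 scale (edgeR adjusted p = 0.00224, 0.00515 and 0.0127). Glud1, glutamate dehydrogenase, fell by 0.23 (edgeR adjusted p = 0.00762). With count density offsets none of the 11 passed, where 16.5% of all genes did.

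Genes of the translation and long-term depression that group I receptors drive went both ways, with 3 rises and 4 falls among 15, against 15.3% rises and 14.4% falls over all genes, and a median log2 fold change of 0.0083. Mtor, a growth kinase, and Eef2k, the kinase of elongation factor 2, rose by 0.21 and 0.20 on the log2 scale (edgeR adjusted p = 0.0109 and 0.00678). Eif4e, the cap-binding protein, fell by 0.14 (edgeR adjusted p = 0.00616). Of these 15, 2 rose and 1 fell with count density offsets, against 8.43% and 8.03% of all genes. In the fit on the library total, where 0.666% of all genes were called, 1 gene of these 6 lists passed, Elfn2. Without KO 2 and WT 4 the counts of rises and falls in each of the 6 lists moved by at most 1 gene, and the median of the translation list was -0.016.

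Cell type markers moved in the same libraries. Set against the 15.3% of all genes that rose and the 14.4% that fell, 6 of 9 microglial markers fell, with a summed level of 499 to 528 CPM in KO and 550.4 to 693 CPM in WT. Of 5 markers of oligodendrocyte precursors 4 rose, with 376 to 445 CPM in KO and 300.1 to 356 CPM in WT. Falls were also called in 3 of 6 excitatory neuron and 3 of 6 oligodendrocyte markers, and rises in 3 of 6 endothelial and 1 of 6 thalamic markers. No marker of hippocampus (5 tested), olfactory bulb (4 tested), choroid plexus (3 tested) or cerebellum (2 tested) passed. Only 2 of the 5 cerebellar markers were in the table. After the offsets 4 microglial markers fell and 3 of oligodendrocyte precursors rose, where 8.03% of all genes fell and 8.43% rose, and no excitatory neuron, oligodendrocyte, endothelial or thalamic marker passed. Their part in the receptor values was not tested.

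The genes that ran closest to a receptor from mouse to mouse differed between receptors. The likeness given here is Pearson's r between deviations of log2 CPM from the group mean over the 12 libraries, among 11705 genes with a mean of at least 10 CPM, as a description of libraries that share tissue makeup and depth. Each named gene has one of the highest of 11705 values of r over only 12 libraries. How high such values would be by chance was not tested. Grm5 was closest to Akap9, a scaffold of protein kinase A (r = 0.986), and Dgkb, a diacylglycerol kinase (r = 0.978), and r was 0.984 and 0.967 without KO 2 and WT 4. Grm2 was closest to the muscarinic receptor gene Chrm3 (r = 0.973) and the receptor gene Crhr1 (r = 0.969), with 0.662 and 0.684 without those libraries. Grm4 was closest to Slc32a1, the vesicular GABA transporter (r = 0.962), and Ptpro, a receptor phosphatase (r = 0.961), with 0.890 and 0.861 without them. Grm3 was closest to Dmd, dystrophin (r = 0.901), and Phf10 (r = 0.886), Grm7 to the kinase gene Zak (r = 0.940) and Cnnm2 (r = 0.917), and Grm8 to Tssc4 (r = 0.932) and Eif1ad (r = 0.890). Between receptors, Grm2 and Grm4 had r = -0.791 over all 12 libraries and 0.264 without KO 2 and WT 4, so their opposite course rested on that pair, while Grm5 and Grm7 had r = 0.661 and 0.731. In the same order, Grm4 and Grm5 had 0.736 and 0.523, and Grm2 and Grm8 had 0.706 and 0.592. Below zero over all libraries were also Grm4 and Grm8 (-0.545 and -0.163) and Grm2 and Grm5 (-0.519 and 0.060).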

How the data were processed

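Frontal cortex RNA of 5 KO and 7 WT mice was sequenced. The deposited table gives 1 row per gene with RefSeq accessions and 1 column of raw counts per library, unpooled, per the file headers. STAR and mm10 are named per the submitters' processing notes; the sources used here name neither the counter nor its strand setting or filters, so reads of overlapping antisense genes cannot be told apart. No overlapping gene of a receptor is in the table.

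The test was edgeR's quasi-likelihood test (version 4.0.16, R 4.3.3) with TMM factors, the filterByExpr filter, genotype alone in the model and Benjamini-Hochberg adjustment at 0.05. DESeq2 1.42.0 and limma 3.58.1 (voom) were alternatives. The biological coefficient of variation was 8.11%. Of 14909 genes 14410 were matched to GENCODE M21 by symbol and 447 by accession, and 52 were not. Exonic lengths came from the RefSeq-paired transcripts. Count density offsets are lowess fits, per library, of log2 CPM deviations on the mean count per exonic base.

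Members and lists were chosen with earlier results of these data known. Genes named are the 6 receptors, Upf3b, the called genes of lowest p in each pathway list (at most 4), at most 2 per marker list, and the 2 genes most like each receptor; some genes this rule selects are not reported here. WT 6 and WT 7 were the closest pair of libraries (chi-square per degree of freedom 1.02) and were kept as 2. Sharing of reads between receptor paralogs was not tested.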

Additional observations from a re-analysis of the deposited data

Results flagged for a closer look

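Of 12 sets of values (6 receptors in 2 groups) 2 held a library far from the others by Dixon's Q, where chance gives about 1 in 20. Both flagged values came from 1 library, WT 4. They are therefore not independent, and their number cannot be set against that rate. Grm2 was at 69.4 CPM in WT 4, below the next WT library at 98.9 CPM. Grm4 was at 76.1 CPM in WT 4, above the next WT library at 55.4 CPM. WT 4 also had the highest summed level of striatal markers of all 12 libraries, 1436 CPM, and the part of these markers in either value was not tested.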

How the results depend on the processing

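Over 23 other settings, 11 chosen for the whole fit and 12 leaving out 1 library each, Grm7 kept its sign and its side of the threshold. Grm4 passed without KO 2 and WT 4 (log2 fold change 0.25, edgeR adjusted p = 0.0102) and with the striatal covariate added later (0.25, edgeR adjusted p = 0.00559). It also passed without WT 4 alone (0.33, edgeR adjusted p = 0.00704). Grm3 passed without WT 2 (-0.13, edgeR adjusted p = 0.0484). The sign turned with count density offsets for Grm5 (0.016) and in the fit on the library total for Grm8 (-0.0080). Without WT 4 it turned for Grm2 (-0.010) and Grm5 (0.0044). Leaving out 1 library gave -0.010 to 0.20 for Grm2, -0.13 to -0.075 for Grm3, 0.16 to 0.33 for Grm4, -0.10 to 0.0044 for Grm5, 0.095 to 0.15 for Grm7 and 0.086 to 0.18 for Grm8. The causes were not tested. All genes called numbered 4233, and 2349 with count density offsets, 95 in the fit on the library total (88.4% of them higher, against 51.6%) and 3129 to 4887 without 1 library. With the mouse number as a replicate block 2315 were called and no receptor passed. These numbers give no sign of pairing: the deviations of same-numbered libraries had r from -0.376 to 0.141, and 0 of the 5 KO libraries correlated best with its own number. Among the ratios, 0 of 15 pairs passed, also with other pseudocounts and without 1 library. With 1 library left out, a single pair could not pass the adjustment even at the smallest possible permutation p, so those counts are no check. The log2 ratio of Grm7 to Grm8, KO minus WT, was -0.0094 without KO 2 and WT 4, and -0.042 to 0.075 without 1 library. Leaving out 1 library also turned the sign of Grm2 to Grm4 (-0.36 to 0.030), to Grm5 (-0.045 to 0.26), to Grm7 (-0.15 to 0.082) and to Grm8 (-0.11 to 0.041). Each receptor had at least 162 counts in every library. The coefficient of variation that counting alone gives was near the observed one for Grm3 in KO (3.75% and 4.11%) and Grm8 in WT (7.44% and 6.89%), so depth limits these, and in the other 10 sets of values it gave under 0.5 of the variance. Library total and genotype are hard to separate, since 4 of 5 KO totals exceed every WT total.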
